A study of Mus musculus with 14 samples.

Results

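The 39 genes described here encode proteins of the complement and coagulation systems and were taken by name, with no threshold on a measured value. RNA of mouse liver was sequenced in 12 bulk libraries, in 4 groups of 3, and in 2 libraries of single nuclei. In the first bulk comparison the livers labelled KO (Ms4a7 knockout) are set against livers labelled WT (wild type), both after a diet for nonalcoholic steatohepatitis (NASH) given over 22 weeks. In the second, per the labels, wild-type mice kept on chow had LD (lipid droplets) injected into the tail vein on 6 consecutive days and are set against mice injected with PBS in the same way. The nuclei come from a KO and a WT library, each of 3 pooled livers after the NASH diet. How Ms4a7 was deleted, the source of the droplets, and the sex and age of the mice are not given in the sources used here. All 39 genes were present in each of the 3 deposited tables, of 23404 genes (labelled KO and WT), 20337 genes (labelled LD and PBS) and 21915 genes (nuclei), which hold 29737 gene names in all.

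Complement is a cascade of plasma proteins. C1q with its proteases C1r and C1s, or mannose-binding lectin with MASP proteases, cleaves C4 and C2. Cleavage of C3 and C5 then releases anaphylatoxins, which bind receptors on myeloid cells, and leads to assembly of C6 to C9 into a membrane pore. Coagulation is a second protease cascade that ends in thrombin, which turns fibrinogen into fibrin, while plasmin dissolves fibrin and protein C with protein S limits thrombin formation. Hepatocytes make most of these plasma proteins. C1q and properdin are made mainly by macrophages and other myeloid cells, and factor VIII by liver endothelial cells.

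Ms4a7, a membrane protein gene of macrophages, went against the labels of the bulk libraries. It had 102, 117 and 136 normalized counts in the libraries labelled KO, against 9.70, 25.8 and 23.3 in those labelled WT. In the other table it had 10.5, 7.60 and 9.32 normalized counts in the libraries labelled LD, against 62.2, 84.7 and 163 in those labelled PBS. The submitters named the table with the KO and WT labels for lipid droplets and the table with the LD and PBS labels for Ms4a7, so names and labels disagree, and the groups are called by their labels below. Whether the labels of the 2 tables were exchanged was not settled; if they were, the genotype, diet and treatment given here for every bulk value would be those of the other table. In nuclei, Ms4a7 was highest in a macrophage-like group, at 0.622 scaled UMIs in the KO library and 1.25 in the WT library. Where in the gene the deletion lies is not given, so the Ms4a7 signal in KO nuclei does not check the deletion. Libraries held 21945394 to 23126164 gene reads in the table labelled KO and WT and 39318264 to 41346464 in the table labelled LD and PBS. The 10 stellate markers summed to 2216 to 5324 normalized counts in libraries labelled WT and 32263.5 to 37812.5 in those labelled PBS. The 15 hepatocyte markers summed to 3084960 to 3483350 in libraries labelled WT and 4708840 to 5775740 in those labelled PBS. The labels put WT on the NASH diet and PBS on chow. The 2 tables were scaled separately, and these sums were not tested. The labels do not say whether replicates are separate animals, so p-values measure the spread between these libraries.

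Promoter windows are shown for the genes that passed the test in a bulk comparison, to set the letters upstream of macrophage-made (C1qb, Cfp) and hepatocyte-made (C8b, F11) members side by side. RefSeq promoters of build GRCm38.p6 matched 30 of 39 genes, among them 8 of the 10 that passed. Each window holds the 250 bases before the annotated start, 5′ to 3′ on the gene's strand. The 4 below are those that lie outside the GENCODE gene and within 30 bases of the outer RefSeq start. Capitals mark matches to TTGCNNAA and TTNNGNAAN (C/EBP type, which can overlap), GTTAAT (part of an HNF1 site), CAAAGGTCA (HNF4 type), TTCNNNGAA (STAT type) or GAGGAAGT (PU.1 type), searched on both strands.
C1qb: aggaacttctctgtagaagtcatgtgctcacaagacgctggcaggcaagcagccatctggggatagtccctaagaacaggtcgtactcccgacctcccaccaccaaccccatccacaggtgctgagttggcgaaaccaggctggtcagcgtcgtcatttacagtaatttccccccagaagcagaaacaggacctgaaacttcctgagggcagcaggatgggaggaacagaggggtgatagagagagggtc
Cfp: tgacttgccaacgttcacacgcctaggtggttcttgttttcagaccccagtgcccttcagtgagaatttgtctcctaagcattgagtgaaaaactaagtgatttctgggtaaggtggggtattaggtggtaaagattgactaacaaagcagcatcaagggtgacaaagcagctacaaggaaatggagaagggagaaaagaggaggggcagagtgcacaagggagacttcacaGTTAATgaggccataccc
C8b: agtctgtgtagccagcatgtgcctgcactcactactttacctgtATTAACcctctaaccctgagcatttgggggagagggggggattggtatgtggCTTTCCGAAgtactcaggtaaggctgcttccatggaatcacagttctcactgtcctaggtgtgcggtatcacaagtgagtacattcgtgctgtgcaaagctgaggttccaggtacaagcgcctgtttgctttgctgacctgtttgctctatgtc
F11: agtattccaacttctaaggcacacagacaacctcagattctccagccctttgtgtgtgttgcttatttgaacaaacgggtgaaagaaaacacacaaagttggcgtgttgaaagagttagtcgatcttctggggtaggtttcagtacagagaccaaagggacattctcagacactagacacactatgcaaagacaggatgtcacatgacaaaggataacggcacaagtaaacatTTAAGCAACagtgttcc
The C1qb window lies at chr4:136886201-136886450 on the minus strand, that of Cfp at chrX:20931556-20931805 on the minus strand, that of C8b at chr4:104766067-104766316 on the plus strand and that of F11 at chr8:45262032-45262281 on the minus strand. The C1qb window held none of these letters, and Cfp and C8b each held a match to GTTAAT. In F11 the matches to TTGCNNAA and TTNNGNAAN overlapped, and C8b had 1 match to TTNNGNAAN. Over the 30 matched genes, TTNNGNAAN was found in 14, GTTAAT in 8, TTGCNNAA in 7, TTCNNNGAA in 6, CAAAGGTCA in 1 (F7) and GAGGAAGT in 1 (C1qc). The limits on position set for the 4 printed windows do not apply to these counts. The C1qc window had 151 of its 250 bases inside the GENCODE gene, and that of F7 lay 528 bases from the outer start. C1s1 and C8g had more than 1 window, and a match in any window was counted. Among 32841 promoter windows of the same length, the shares with a match were 36.8% for TTNNGNAAN, 6.43% for GTTAAT, 9.57% for TTGCNNAA, 7.02% for TTCNNNGAA, 0.426% for CAAAGGTCA and 2.44% for GAGGAAGT. A longer HNF1 motif and a longer HNF4 motif were found in 0 of the 30 and an NF-kB motif in 1, beside 0.00913%, 0.0335% and 4.11% of all windows. A match is a run of letters, not a measured binding site.

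Genes of the C1q chains, properdin (Cfp) and the C5a receptor (C5ar1) were higher in the livers labelled KO than in those labelled WT. Members that hepatocytes make did not pass the test, and C4b differed most among them, at 0.64 on the log2 scale. Of the 39 members, 5 passed the test as higher and 0 as lower (limma, Benjamini-Hochberg adjusted p under 0.05 over all 15827 genes tested), and 13 had an unadjusted p under 0.05. Over all genes tested, 3.02% were called higher and 0.701% lower, and 2960 of 15827 had an unadjusted limma p under 0.05. The members' median log2 fold change was 0.02, beside -0.02 over all genes, and 32 of 39 members differed by less than 0.5 on the log2 scale. The 3 KO values lay above the 3 WT values for 10 members and below them for 4, while over all genes tested the groups did not overlap in 12.4% (higher) and 11.7% (lower).

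C1q is the recognition molecule of the classical pathway, and its chain genes C1qa (chr4:136895917-136898803), C1qb (chr4:136880129-136886187) and C1qc (chr4:136889804-136893065) lie next to each other on the minus strand of mm10. C1qa had 4502, 5167 and 5539 normalized counts in the libraries labelled KO, against 740, 1715 and 1341 in those labelled WT. Its log2 fold change was 2.08 ± 0.277 (SE; limma adjusted p = 0.0132). C1qb had 3533, 5321 and 5092 normalized counts in the libraries labelled KO, against 686, 1524 and 1559 in those labelled WT. All 3 KO libraries were above all WT libraries for each chain, and labelled KO replicate 1 and labelled WT replicate 1 were the lowest of their groups. For C1qc the counts were 3932, 5875 and 5517 in the libraries labelled KO and 770, 1781 and 1674 in those labelled WT. The log2 fold change was 1.96 ± 0.32 for C1qb (limma adjusted p = 0.0219) and 1.93 ± 0.318 for C1qc (limma adjusted p = 0.0223). Per kilobase of transcript the chains were at like levels, 4875, 4273 and 4246 for C1qa, C1qb and C1qc in the livers labelled KO and 1216, 1155 and 1170 in the livers labelled WT. C1ra and C1s1, the proteases that C1q activates and that hepatocytes make, did not pass, with log2 fold changes of -0.03 ± 0.0831 and -0.11 ± 0.0857.

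Properdin stabilizes the C3 convertase of the alternative pathway, and its gene Cfp lies at chrX:20925454-20931555. It had 2481, 3027 and 3097 normalized counts in the libraries labelled KO, against 515, 1148 and 901 in those labelled WT, with no overlap (log2 fold change 1.81 ± 0.268, limma adjusted p = 0.016). C5ar1 (chr7:16246743-16259540), the receptor of C5a on neutrophils and macrophages, had the largest fold change of the 39. Its normalized counts were 87.2, 239 and 212 in the libraries labelled KO, against 7.27, 23.2 and 12.2 in those labelled WT (log2 fold change 3.58 ± 0.499, limma adjusted p = 0.0149). The WT side of that value rests on 34 reads over 3 libraries, against 457 reads in the libraries labelled KO. C3ar1, the C3a receptor, had 84.8, 193 and 151 normalized counts in the libraries labelled KO and 36.4, 83.9 and 55.1 in those labelled WT. The lowest KO library lay just above the highest WT library, and the gene did not pass (log2 fold change 1.27 ± 0.383, limma adjusted p = 0.126). Leaving out labelled KO replicate 2 ended all 5 of these calls, with adjusted p between 0.0518 and 0.0823, and leaving out labelled KO replicate 3 ended all but C1qa, while the 5 log2 fold changes stayed between 1.76 and 3.39.

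Macrophage markers moved with these genes. In the libraries labelled KO, 5 of 10 Kupffer cell markers were called higher, and the list summed to 25961 to 46342 normalized counts, against 6501 to 11947 in the libraries labelled WT. Of 12 markers of recruited macrophages, 6 of the 10 tested were called higher: Itgam, Cd14, Lyz2, Fcgr1, Cd9 and Lgals3. The 12 markers summed to 11224 to 19800 in the libraries labelled KO and 1475 to 2014 in those labelled WT. Lyz2 alone had 9025 to 17140 (labelled KO) and 612 to 944 (labelled WT). Ccr2, Ly6c2, Cx3cr1, Trem2, Gpnmb and Spp1 of this list were not called: 4 were tested and did not pass, and the others were not tested. In KO nuclei the list summed higher in the cholangiocyte-like and neutrophil-like groups than in the macrophage-like group, but not in WT nuclei. None of the Kupffer cell or recruited macrophage markers was at 0 in all libraries. Of 15 hepatocyte markers 0 passed, with sums of 3306350 to 3776880 in the libraries labelled KO and 3084960 to 3483350 in those labelled WT. Neutrophil markers, which bear on C5ar1, summed to 284 to 693 in the libraries labelled KO and 77.6 to 121 in those labelled WT, and of the 4 of 8 tested Csf3r, a cytokine receptor gene, was called higher (log2 fold change 2.44). In bulk liver, more cells of a type and more RNA of these genes per cell cannot be told apart, and the part of macrophage and neutrophil number in the result was not tested.

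C4b, which encodes the C4 cleaved by C1s, came nearest to the threshold among the remaining members. It had 30657, 39294 and 32008 normalized counts in the libraries labelled KO, against 24478, 19562 and 21271 in those labelled WT (log2 fold change 0.64 ± 0.143, limma adjusted p = 0.0553). Mbl2, a mannose-binding lectin that starts the lectin pathway, had 6750, 6435 and 7484 normalized counts in the libraries labelled KO, against 4516, 5670 and 4567 in those labelled WT (0.49 ± 0.117, adjusted p = 0.0652). Cfb, the protease of the alternative pathway convertase, had 16281, 17826 and 20060 in the libraries labelled KO, against 13074, 13793 and 14449 in those labelled WT (0.39 ± 0.111, adjusted p = 0.111). In these 3 genes the groups did not overlap and none passed. C3, the protein on which all pathways converge, overlapped, with 150185, 199130 and 196182 normalized counts in the libraries labelled KO and 150940, 119880 and 158962 in those labelled WT (0.34 ± 0.21, limma adjusted p = 0.439).

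C4a, the sex-limited protein gene near C4b on chromosome 17, which GENCODE lists as a processed transcript, was uneven within both groups. It had 3098, 8406 and 2514 normalized counts in the libraries labelled KO and 2407, 2107 and 11294 in those labelled WT. A single library of each group was far above its other two, and the log2 fold change was 0.06 ± 0.687. C4a and C4b are near-identical copies, so how reads were split between them is uncertain for both genes.

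The members of coagulation and of the membrane pore did not pass in the livers labelled KO. All 8 proteases and cofactors of coagulation had log2 fold changes between -0.18 (F8) and 0.10 (F10). The 5 genes of fibrin formation and its removal lay between -0.21 (F13b) and 0.11 (Fga), and the 6 of the terminal pathway between -0.24 (C8b) and 0.17 (Hc, which encodes C5). Fibrinogen genes were among the most abundant members per kilobase, with 43172 (Fga), 24105 (Fgb) and 39670 (Fgg) normalized counts in the livers labelled KO and 39511, 23943 and 38078 in those labelled WT. The remaining members did not pass: Cfi, the protease that inactivates C3b and C4b, had 0.33 ± 0.11, Pros1 (protein S) 0.30 ± 0.121, Masp2 -0.28 ± 0.118, Proc (protein C) -0.10 ± 0.113, Mbl1 -0.09 ± 0.114, Masp1 0.04 ± 0.107 and C2 0.02 ± 0.0975. The authors' deposited table, made with DESeq2, has an adjusted p under 0.05 for 12 members as higher and 2 as lower (F13b and Masp2). This wider set holds the 5 named above, and the share of all genes under 0.05 there is not given here.

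**Figure D1:**
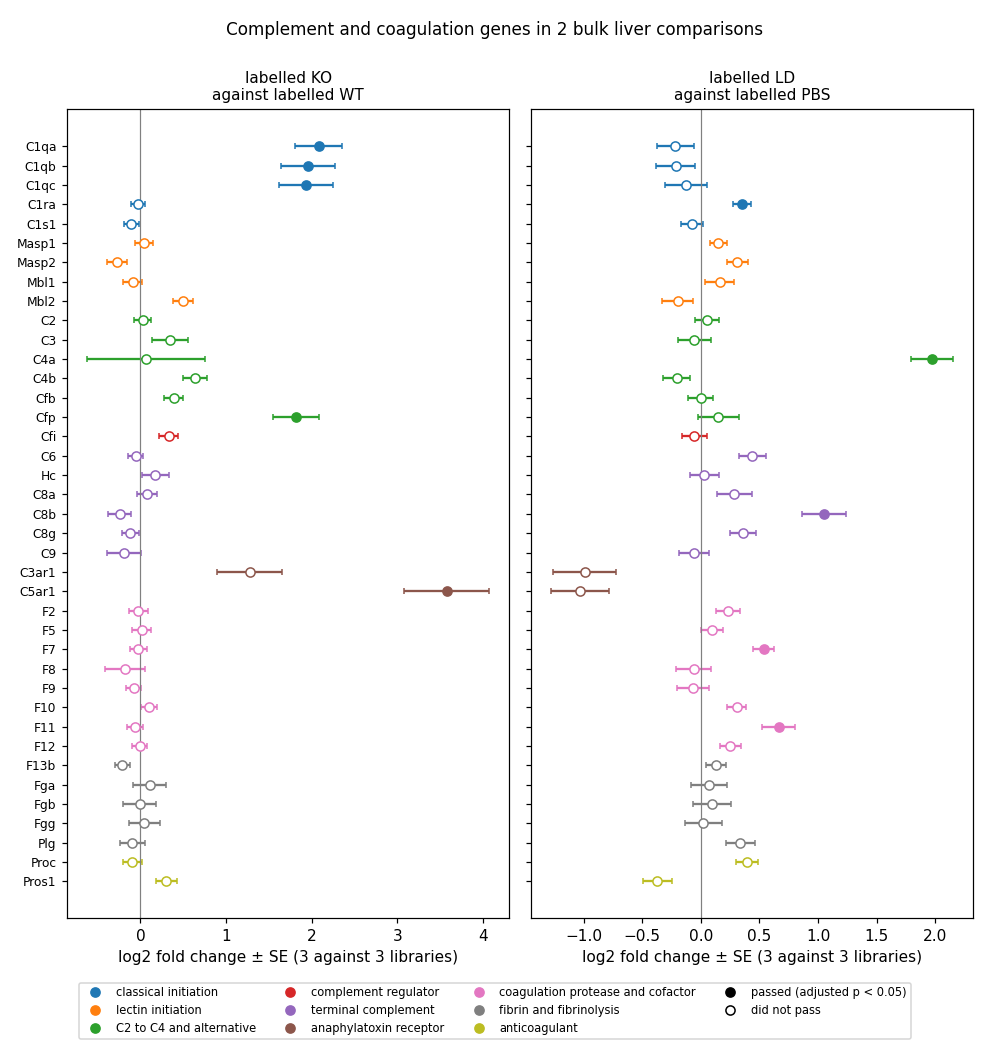
Log2 fold change (x axis, ± SE) of each of the 39 genes (rows, coloured by role) in the livers labelled KO against labelled WT (left) and labelled LD against labelled PBS (right), 3 libraries a group. Filled points passed limma's test: in the left panel the C1q chains, Cfp and C5ar1 lie between 1.81 and 3.58, and in the right panel C4a (1.97) and C8b (1.05) lie farthest to the right.

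A list of 28 other complement genes and one of 35 other coagulation genes put the members beside the rest of their pathways. In the livers labelled KO, 4 of 23 tested complement genes were called higher and 0 lower. They are Itgam (3.52 ± 0.36), Itgb2 (2.38 ± 0.366) and Itgax (1.49 ± 0.299), which encode chains of complement receptors 3 and 4 on myeloid cells, and Cd55 (1.74 ± 0.291), which encodes decay-accelerating factor. Of 29 tested coagulation genes only Procr, the endothelial protein C receptor gene, passed (3.91 ± 0.461, limma adjusted p = 0.00975). Itgam was counted among the recruited macrophage markers too, and Itgax among dendritic cell markers. The medians of the complement and coagulation lists were 0.08 and -0.08.

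In the livers labelled LD, C4a, which encodes the sex-limited protein, C8b of the membrane pore, the factor VII and XI genes F7 and F11, and C1ra were higher than in the livers labelled PBS, all by less than 2 on the log2 scale, and the C1q chains and Cfp did not pass. Of the 39 members, 5 were called higher and 0 lower among 14900 genes tested (limma, adjusted p under 0.05), and 15 had an unadjusted p under 0.05. Over all genes tested, 1.95% were called higher and 2.21% lower, and 2933 of 14900 had an unadjusted limma p under 0.05. The median log2 fold change was 0.09 over the members and 0.00 over all genes. The LD values lay above the PBS values for 14 members and below them for 2, C3ar1 and C5ar1, while over all genes tested the groups did not overlap in 12.6% (higher) and 12.8% (lower).

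C4a (chr17:34809092-34823464, minus strand) had 3612, 4784 and 4506 normalized counts in the libraries labelled LD, against 982, 1462 and 893 in those labelled PBS. The groups were far apart, with a log2 fold change of 1.97 ± 0.181 (limma adjusted p = 0.00244), and the call held in all 14 alternative settings. Its near-identical neighbour C4b went the other way without passing, at 49456 ± 3481 normalized counts in the libraries labelled LD and 57191 ± 5778 in those labelled PBS (SD, n = 3 each; log2 fold change -0.21 ± 0.113). Per kilobase, C4a stood at 801 in the livers labelled LD and 207 in those labelled PBS, far under C4b at 9194 and 10632. Whether reads moved between the copies was not tested.

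C8 is part of the membrane pore and is built of the products of C8a, C8b and C8g. C8b (chr4:104766317-104804548, plus strand), whose promoter window is printed above, had 5633, 5961 and 3848 normalized counts in the libraries labelled LD, against 2579, 1936 and 2927 in those labelled PBS. The lowest LD library was above the highest PBS library, and the log2 fold change was 1.05 ± 0.189 (limma adjusted p = 0.0196). Its partners were higher by less and did not pass, C8a by 0.29 ± 0.148 and C8g by 0.36 ± 0.11. Per kilobase C8b was the lowest of the 3, at 2299 beside 5192 (C8a) and 6768 (C8g) in the livers labelled LD, and at 1108 beside 4268 and 5287 in those labelled PBS. C6, which joins the pore before C8, had 10905, 8505 and 8324 normalized counts in the libraries labelled LD, against 7341, 6367 and 6627 in those labelled PBS (0.44 ± 0.116, limma adjusted p = 0.0724). Hc and C9, at 0.03 ± 0.121 and -0.06 ± 0.131, did not pass.

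Factor VII starts the tissue factor route of coagulation and factor XI amplifies thrombin formation. F7 (chr8:13026034-13035809, plus strand) had 2390, 2606 and 2240 normalized counts in the libraries labelled LD, against 1749, 1630 and 1607 in those labelled PBS (log2 fold change 0.54 ± 0.088, limma adjusted p = 0.0142). F11 (chr8:45241174-45262031, minus strand) had 1840, 1797 and 1306 in the libraries labelled LD, against 979, 974 and 1138 in those labelled PBS (0.66 ± 0.14, adjusted p = 0.0339). The groups did not overlap in either gene, and the third LD library was the nearest to the PBS range for F11. F10, the factor whose gene neighbours F7, differed by 0.31 ± 0.0813 and did not pass (adjusted p = 0.0745), nor did F12 (0.25 ± 0.0913), F2, which encodes prothrombin (0.23 ± 0.104), F5 (0.09 ± 0.0921), F8 (-0.06 ± 0.149) or F9 (-0.07 ± 0.135). C1ra (chr6:124512405-124523443, plus strand), a C1r gene, had 11429, 11596 and 11124 normalized counts in the libraries labelled LD, against 9019, 8542 and 9238 in those labelled PBS. Its groups were tight and apart, with a log2 fold change of 0.35 ± 0.0755 (limma adjusted p = 0.0369).

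Proc, the protein C gene, fell just short of the threshold. It had 15456, 17421 and 17659 normalized counts in the libraries labelled LD, against 13731, 11925 and 12880 in those labelled PBS (log2 fold change 0.39 ± 0.0924, limma adjusted p = 0.0504). Its cofactor gene Pros1 overlapped between the groups and had the opposite sign, with 1743, 1430 and 1296 in the libraries labelled LD and 1979, 1712 and 2064 in those labelled PBS (-0.37 ± 0.124, adjusted p = 0.138). The anaphylatoxin receptors were below the PBS range in every LD library and did not pass. C5ar1 had 55.6, 49.9 and 51.8 normalized counts in the libraries labelled LD, against 80.2, 141 and 112 in those labelled PBS (-1.03 ± 0.245, adjusted p = 0.0513). C3ar1 had 147, 167 and 139 in the libraries labelled LD, against 204, 282 and 472 in those labelled PBS (-0.99 ± 0.27, adjusted p = 0.0794). The C1q chains gave -0.22 ± 0.156 (C1qa), -0.21 ± 0.166 (C1qb) and -0.13 ± 0.18 (C1qc), and Cfp 0.15 ± 0.172. Of the other members, the lectin pathway ranged between -0.20 (Mbl2) and 0.31 (Masp2), the genes of fibrin formation and removal between 0.02 (Fgg) and 0.34 (Plg, which encodes plasminogen), and C1s1, C2, C3, Cfb and Cfi between -0.08 and 0.05, with none past the test.

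Of the 5 calls, C8b, F7, F11 and C1ra ended when single libraries were left out (labelled LD replicate 1 or 2 or labelled PBS replicate 2 for each of the 4, labelled PBS replicate 3 also for F7, F11 and C1ra, and labelled PBS replicate 1 also for F11 and C1ra). C1ra also ended with edgeR (adjusted p = 0.0507) and with quantile normalization, where its log2 fold change was 0.19 (adjusted p = 0.196, the highest for the 5 genes over all alternatives). Cell type markers moved here too. Of 12 recruited macrophage markers 8 were called lower, with sums of 7802 to 12241 normalized counts in the libraries labelled LD and 17092 to 24657 in those labelled PBS, while Kupffer cell markers (2 of 10 called higher) summed to 12454 to 16412 in the libraries labelled LD and 12820 to 18693 in those labelled PBS. Stellate (4 of 10) and cholangiocyte (4 of 8) markers were also called lower. Spp1 counts in both the cholangiocyte and the recruited macrophage list, at 2608 to 6135 in libraries labelled LD and 7610 to 11765 in those labelled PBS. Neutrophil markers (0 of 6 tested called) summed to 256 to 451 in the libraries labelled LD and 373 to 508 in those labelled PBS. Of 15 hepatocyte markers 0 were called, with a median log2 fold change of 0.36 and sums of 5761690 to 6284440 in the libraries labelled LD and 4708840 to 5775740 in those labelled PBS. The part of cell makeup in the members' differences was not tested.

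**Figure D2:**
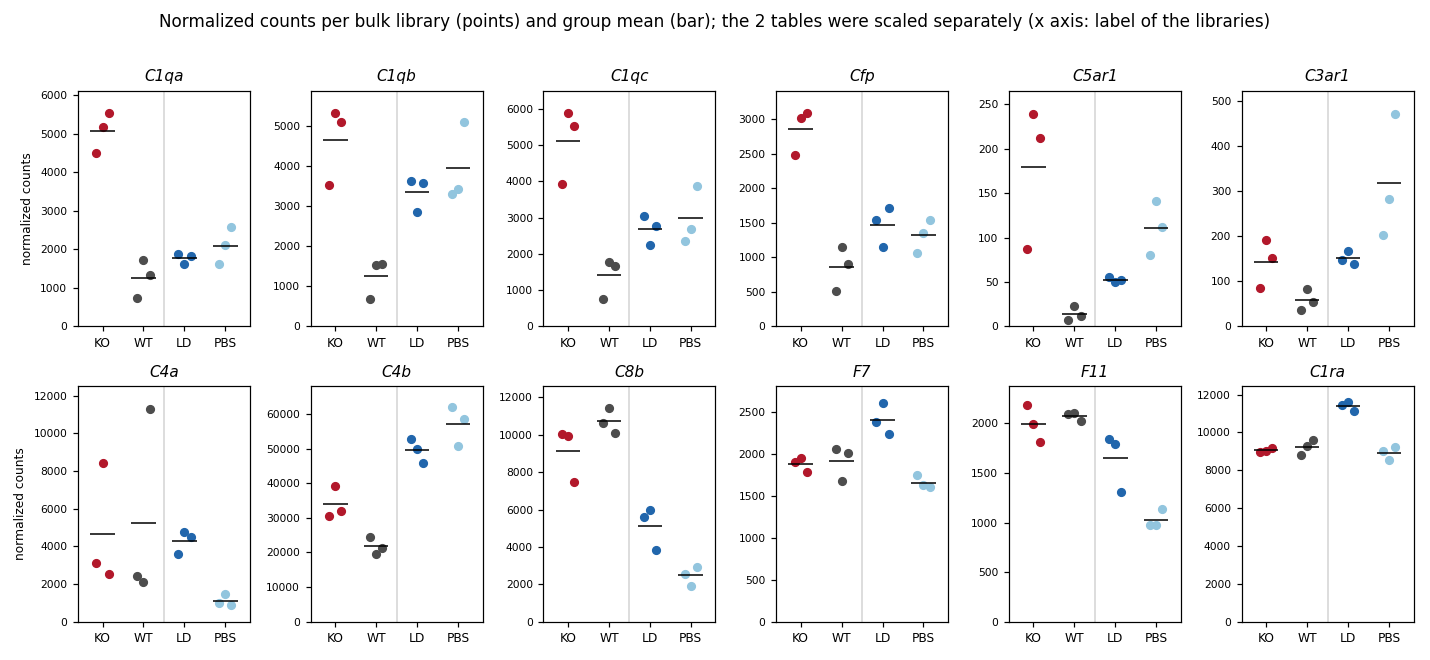
Normalized counts (y axis, from 0) of 12 genes in each bulk library (points; bars are group means), for the libraries labelled KO, WT, LD and PBS. Values compare only within a table: the KO points of C1qa, C1qb, C1qc, Cfp and C5ar1 all lie above the WT points, the LD points of C4a, C8b, F7, F11 and C1ra all lie above the PBS points, and C4a has 1 high library in each of the KO and WT groups.

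Among the other pathway genes, the livers labelled LD had 2 of 24 tested complement genes called higher, C1rl, a C1r-like protease gene (0.44 ± 0.0917), and Fcna, a ficolin gene (0.85 ± 0.164). Of 32 tested coagulation genes, Serpina5, the protein C inhibitor gene (2.66 ± 0.567), and Hgfac, the gene of a hepatocyte-made serine protease (0.49 ± 0.111), were called higher and Plat, the tissue plasminogen activator gene, lower (-1.15 ± 0.234). Serpina5 was scarce, at 57.7, 29.3 and 31.1 normalized counts in the libraries labelled LD and 12, 3.61 and 2.73 in those labelled PBS. The authors' deposited table has an adjusted p under 0.05 for 8 members as higher (those 5 with C6, F10 and Proc). It has 2 as lower (C3ar1 and C5ar1), and the share of all genes under 0.05 there is likewise not given here.

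The nuclei place the members in cell types. The deposited table gives the mean UMIs per nucleus, scaled to 10000, in 12 numbered groups for the KO and the WT library. Groups were named from markers: for example, all 10 Kupffer cell markers were highest in group 3, all 10 stellate markers in group 2, and all 8 mesothelial markers in group 11, while group 8 held stellate, macrophage and endothelial markers together and has no name. With 1 library of each genotype nothing was tested, and the number of nuclei behind each mean is not given in the table. Of the 39 members, 19 were highest in the periportal hepatocyte-like group 1 and 4 (C6, Mbl1, Mbl2 and F5) in the pericentral hepatocyte-like group 0. By the mean of both libraries, a further 6 were highest in the mesothelial-like group 11, 5 in the macrophage-like group 3, 2 each in the endothelial-like group 4 and the neutrophil-like group 5, and 1 in the stellate-like group 2.

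The members called in the livers labelled KO were highest in myeloid groups. In group 3, C1qa had 3.58 scaled UMIs in the KO library and 2.04 in the WT library, C1qb 3.21 (KO) and 2.04 (WT), C1qc 2.89 (KO) and 1.57 (WT), and Cfp 2.22 (KO) and 1.35 (WT). The next highest level of C1qa was in the unnamed group 8, at 1.21 in KO nuclei and 0.639 in WT nuclei, and likewise for C1qb. C1qc had 0.771 (KO) and 0.557 (WT) there and 0.609 (KO) and 0.675 (WT) in the neutrophil-like group. C5ar1 was highest in the neutrophil-like group, at 1.51 in the KO library and 1.63 in the WT library, and C3ar1 in group 3, at 0.528 in the KO library and 0.654 in the WT library. F8, the factor VIII gene, had 22.6 scaled UMIs in KO and 22.8 in WT nuclei of the endothelial-like group and 7.27 or less in every other group. Masp1, a lectin pathway protease gene, was highest in stellate-like nuclei, at 9.0 in the KO library and 7.87 in the WT library.

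Mesothelial-like nuclei held the highest levels in both libraries of C3 (23.8 in KO, 12.8 in WT), C4b (7.48 in KO, 6.83 in WT), Cfb (2.62 in KO, 0.992 in WT) and C2 (2.53 in KO, 2.14 in WT). For C1s1 (3.5 in KO, 2.72 in WT) and C1ra (1.14 in KO, 0.341 in WT) they did so in the KO library, while in the WT library C1s1 was at 2.75 in periportal hepatocyte-like and C1ra at 0.405 in stellate-like nuclei. In the periportal hepatocyte-like group C3 was at 8.85 in KO nuclei and 5.30 in WT nuclei and C4b at 2.79 in KO nuclei and 2.93 in WT nuclei. C4a was listed at 0 in mesothelial-like nuclei of both libraries. The hepatocyte markers summed in that group to 18.7% (KO) and 17.7% (WT) of their level in periportal hepatocyte-like nuclei. In the neutrophil-like group that share was 73.1% in the KO library and 63.2% in the WT library, and the part of hepatocyte RNA in the levels of hepatocyte-made members there, C8g included, was not tested.

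**Figure D3:**
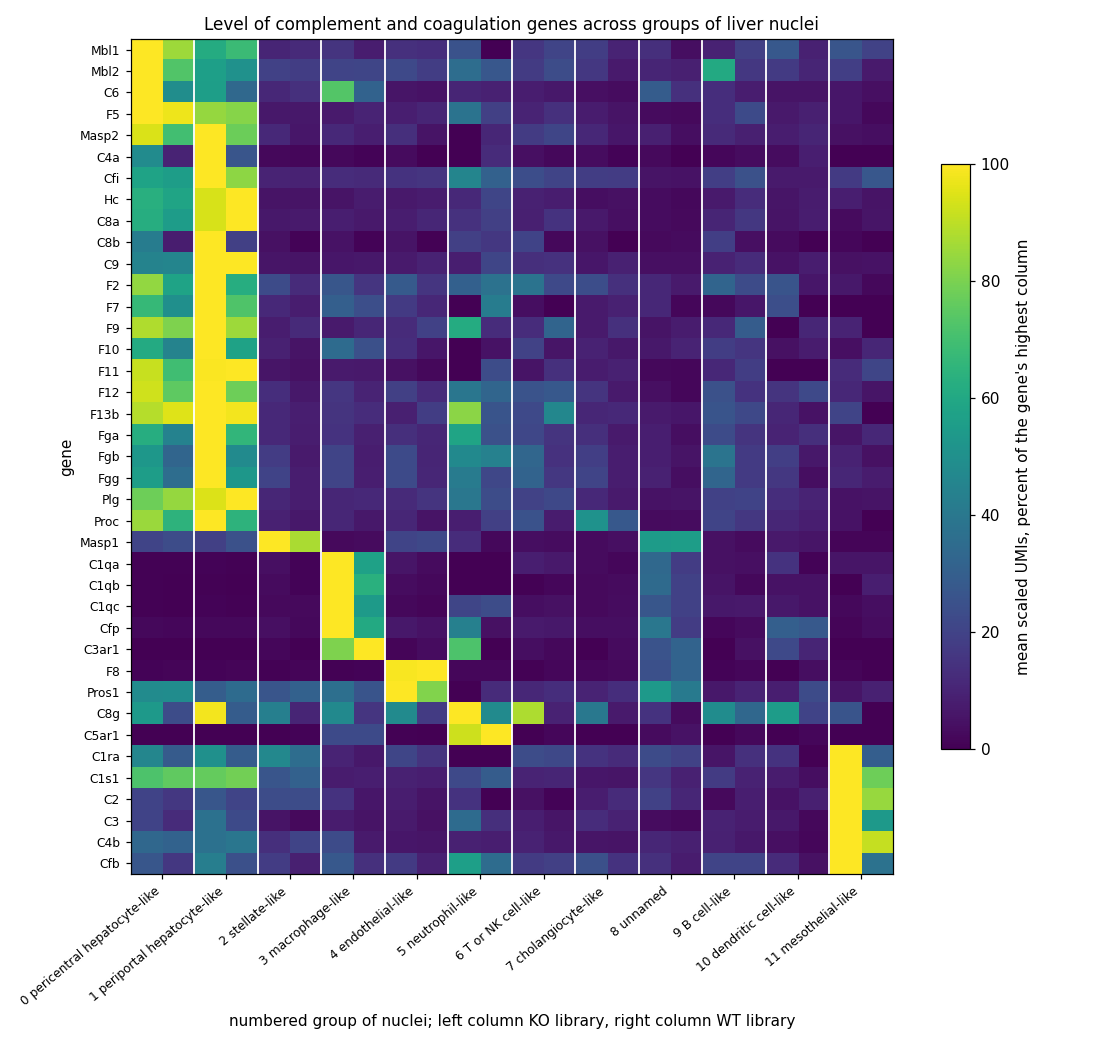
Level of each of the 39 genes (rows) in 12 groups of nuclei, KO library in the left and WT library in the right column of each group, as percent of the gene's highest column. The first 4 rows are highest in pericentral and the next 19 in periportal hepatocyte-like nuclei, the C1q chains and Cfp in the macrophage-like group, F8 in the endothelial-like group and C3 and C4b in the mesothelial-like group.

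Within hepatocyte-like nuclei many members had a zonal level, which is a description, since the groups were clustered on the same RNA. Of the 23 with their highest level in a hepatocyte-like group, the 19 picked as highest in the periportal group exceeded the pericentral group in both libraries. The 4 picked as highest in the pericentral group were lower in the periportal group in both. These directions follow from how the genes were sorted, so only the sizes of the ratios are described. C9, the pore-forming protein gene, had log2 ratios of periportal to pericentral level of 1.16 in KO nuclei and 1.14 in WT nuclei, C8b of 1.25 (KO) and 1.28 (WT), and C4a of 1.05 (KO) and 1.38 (WT). At the other end stood C6 with -0.84 (KO) and -0.54 (WT), and Mbl2 with -0.83 (KO) and -0.53 (WT). F12, at 0.11 (KO) and 0.05 (WT), and F13b, at 0.17 (KO) and 0.05 (WT), were near 0. Proc was at 0.23 (KO) and 0.003 (WT). C6, C8b and C9 encode parts of 1 membrane pore, and no conclusion is drawn from the directions of their ratios. Hepatocyte markers themselves summed to 241 in KO and 128 in WT nuclei of the periportal group and to 133 in KO and 94.0 in WT nuclei of the pericentral group.

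**Figure D4:**
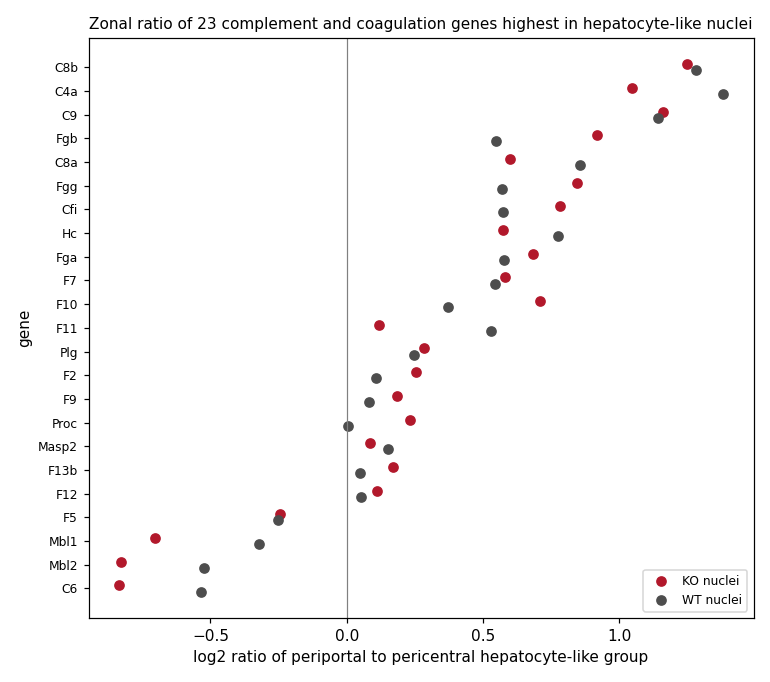
Log2 ratio of the level in periportal to pericentral hepatocyte-like nuclei (x axis) in the KO library (red) and the WT library (grey) for 23 genes highest in either group. C8b, C4a and C9 lie above 1 in both libraries, and C6, Mbl2, Mbl1 and F5 lie below 0 in both.

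Between the KO and WT libraries, C4a and C8b had the largest ratios in hepatocyte-like nuclei among members at or above the median level of a group. Each genotype is 1 library of pooled livers, so these ratios were not tested. Bulk C4a was uneven within a label, at 2407, 2107 and 11294 normalized counts (labelled WT) and 3098, 8406 and 2514 (labelled KO). It was less so in the libraries labelled LD or PBS. C4a stood at 2.01 scaled UMIs in KO and 0.529 in WT nuclei of the periportal group and at 0.973 in KO and 0.203 in WT nuclei of the pericentral group. C8b stood at 1.62 in KO and 0.310 in WT nuclei of the periportal group and at 0.682 in KO and 0.128 in WT nuclei of the pericentral group. Log2 ratios of KO to WT were 1.93 (periportal) and 2.26 (pericentral) for C4a and 2.38 (periportal) and 2.41 (pericentral) for C8b. Of their relatives, C8g, the third C8 chain gene, had 1.76 (periportal) and 1.22 (pericentral) and C4b -0.07 (periportal), and in the periportal group C8a and C9 were at 5.89 in KO against 6.26 in WT nuclei and at 9.70 in KO against 9.71 in WT nuclei.

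A log2 ratio of at least 1 in size, among genes at or above the median level of a group, was used as a fixed fold with no test. Before each KO to WT ratio, the 5th percentile of values above 0 in the group was added to both levels. In periportal hepatocyte-like nuclei 4 of 34 members passed it as higher in KO (C4a, C8b, C8g and Fgb) and 0 as lower, where 4.05% and 3.44% of all genes at that level did. Among pericentral hepatocyte-like nuclei 4 of 33 were higher (C4a, C6, C8b and C8g) and 0 lower, beside 3.77% and 1.6% of all genes. The macrophage-like group had 6 of 34 higher (C2, C4b, C6, C8g, Fgb and Fgg) and 0 lower, beside 3.15% and 1.8%. Over all 12 groups, 57 of 331 pairs of member and group were higher in KO and 7 lower, beside 6.33% and 4.45% of all pairs of gene and group. Fgb was past the fold in 9 of 12 groups, C8g in 8 of the 10 where it reached the level and Fgg in 6 of 12.

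Hepatocyte markers were higher in the KO library in each of the 12 groups, for example at 67.5 in KO and 31.7 in WT nuclei of the macrophage-like group and at 75.6 in KO and 35.3 in WT nuclei of the endothelial-like group. Fgb and Fgg were higher in KO in all 12 groups and Fga in 10, with lower Fga in KO in the dendritic cell-like group (1.04 in KO, 1.39 in WT) and the mesothelial-like group (0.591 in KO, 1.14 in WT). Fgb was at 3.0 in KO and 1.16 in WT nuclei of the macrophage-like group, and the part of hepatocyte RNA in those groups was not tested. C6 in the macrophage-like group stood at 8.28 in KO and 3.55 in WT nuclei, or 73.1% (KO) and 63.8% (WT) of its level in pericentral hepatocyte-like nuclei. Hepatocyte markers in that group reached 50.7% (KO) and 33.7% (WT) of their level in pericentral and 27.9% (KO) and 24.8% (WT) of that in periportal hepatocyte-like nuclei. The remaining members past the fold were, as higher in KO, C3, C8g, Cfb, Fgb and Fgg in stellate-like nuclei, C8g, Masp2, F10, Fgb, Fgg and Proc in endothelial-like nuclei, and C1ra, Cfb and Fgb in mesothelial-like nuclei. In cholangiocyte-like nuclei they were C8g, Mbl2, Fgb and Fgg, and in the unnamed group C6, Cfp, Fga and Fgg. The lymphoid, neutrophil-like and dendritic cell-like groups gave the rest as higher (C1qa, C3, C4b, C8b, C8g, Cfb, Cfp, F2, F9, F10, F13b, Fga, Fgb, Fgg, Masp1, Mbl2 and Proc) and all 7 lower pairs (C9 in group 5, F8, F9 and F13b in group 6, F9 in group 9, and F8 and Pros1 in group 10).

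Set beside the bulk libraries, C4a and C8b had log2 fold changes of 1.97 and 1.05 in the livers labelled LD against PBS, and of 0.06 and -0.24 in the livers labelled KO against WT. The nuclei and the bulk livers labelled KO carry the same genotype label and diet, yet Ms4a7 differed in opposite directions between them, as given above. The C1q chains had log2 ratios of 0.81 (C1qa), 0.65 (C1qb) and 0.88 (C1qc) in macrophage-like nuclei, of 2.08, 1.96 and 1.93 in the livers labelled KO and of -0.22, -0.21 and -0.13 in the livers labelled LD. Fgb, at 1.07 in periportal nuclei, was at -0.01 in the livers labelled KO and 0.10 in those labelled LD. These are different assays and, for nuclei, single libraries, so the values stand side by side with no test.

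**Figure D5:**
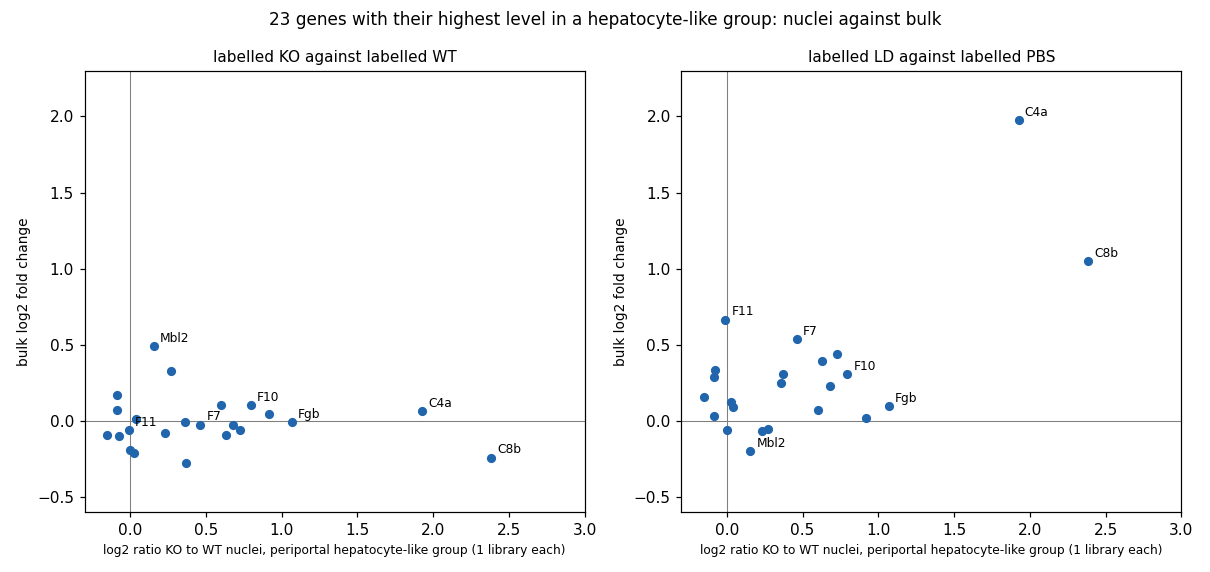
Log2 ratio of KO to WT in periportal hepatocyte-like nuclei (x axis) against the bulk log2 fold change (y axis) of labelled KO against labelled WT (left) and labelled LD against labelled PBS (right), for 23 genes highest in hepatocyte-like nuclei. C4a and C8b lie at 1.93 and 2.38 on the x axis, at 0.06 and -0.24 on the y axis in the left panel and at 1.97 and 1.05 in the right panel.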

How the data were processed

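Mouse liver gave 12 bulk libraries and 2 of nuclei from pooled livers. Per the submitters' processing notes, reads were handled with STAR and DESeq2 and nuclei with Cell Ranger and Seurat 4.0.1 on mm10; neither annotation nor counter is given in the sources used here. The deposited bulk signal values are gene counts divided by a size factor per library, read from the values: 100% were whole multiples of 1 read within a tolerance of 0.01. The authors' deposited log2 fold changes and p-values were used only where named. The deposited nuclei signal values are mean UMIs scaled to 10000 per nucleus; 4 entries with repeated names were left out, and how doublets were treated is not given.

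Each bulk table was fitted alone with limma 3.58.1 (2-sided, with trend) in R 4.3.3 after adding 1 to each value and taking log2, for genes with at least 10 in 3 of 6 libraries, adjusted over all of them by Benjamini-Hochberg at 0.05. Fold changes are on that scale. Count tests on the recovered reads (edgeR 4.0.16 and DESeq2 1.42.0) were alternatives, as were pseudocounts of 0.5 and 5, other filters, quantile normalization, a replicate block and leaving out each library; edgeR called 648 and 603 genes. Levels per kilobase use exon lengths of GENCODE for mm10, which also gives the positions.

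The test was also run on simulated counts drawn with the same dispersion for all genes. That setting differs from these data, so no conclusion is drawn from it. Groups follow the labels. The members and lists were chosen with earlier results of these data known. Library values were printed for members that passed and the next 5 by size; of the other lists, called genes were named; in nuclei, each member's highest group and members past the fold. Lists of other cell types and 8 acute-phase genes were read too: in the livers labelled KO 2 acute-phase, 3 periportal and 0 pericentral markers were called higher, with 1 each of endothelial, neutrophil, B cell and dendritic lists and 0 of stellate, T cell, cholangiocyte and mesothelial lists. In the livers labelled LD 3 acute-phase genes and 1 mesothelial marker were lower, 2 pericentral and 1 T cell marker higher, 1 periportal marker higher and 1 lower, and 0 endothelial, neutrophil, B cell and dendritic markers were called. Amino acid sequences were not used here.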

Additional observations from a re-analysis of the deposited data

Results flagged for a closer look

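In nuclei, F9, the factor IX gene, had a higher level in KO than in WT nuclei of the neutrophil-like group 5 (0.674 in KO and 0.139 in WT, in scaled UMIs) and a lower one in the T or NK cell-like group 6 (0.137 in KO, 0.351 in WT) and the B cell-like group 9 (0.127 in KO, 0.320 in WT), so the log2 ratios of group 5 differed by 2.80 from those of group 6 and by 2.72 from those of group 9. F13b, a factor XIII chain gene, was at 0.830 in KO and 0.261 in WT nuclei of group 5 and at 0.222 in KO and 0.466 in WT nuclei of group 6, a gap of 2.29 on the log2 scale. Each ratio was taken after adding a value set for its group, 0.144 in group 5, 0.0143 in group 6 and 0.023 in group 9. The F9 level in WT nuclei of group 5 lay below the value added there. With 1 library of each genotype these differences were not tested. Hepatocyte markers were present in all 3 groups, at 176 scaled UMIs in KO and 80.9 in WT nuclei of group 5.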

How the results depend on the processing

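Across 14 alternatives, the 5 members called in each bulk comparison kept their sign, and no called value reversed. DESeq2 called more, 1241 genes with 9 members in the livers labelled KO (adding C3ar1, C4b, Cfb and Mbl2) and 1222 genes with 11 members and 13 other pathway genes in the livers labelled LD (adding C3ar1, C5ar1, C6, F10, Masp2 and Proc to the members), beside 589 genes and 620 genes in limma. Quantile normalization called 3 other pathway genes in the livers labelled LD and made C4b lower (-0.46, limma adjusted p = 0.0203). In the livers labelled KO it called 7 members as higher. It added C4b (0.74, limma adjusted p = 0.0409) and Mbl2 (0.59, limma adjusted p = 0.0463). Leaving out 1 library at a time gave 124 to 530 genes, 0 to 6 members and 2 to 5 other pathway genes in the livers labelled KO, and 134 to 1226 genes, 1 to 9 members and 0 to 11 other pathway genes in those labelled LD. The lowest counts came without labelled KO replicate 2 (124 genes, 0 members) and without labelled PBS replicate 2 (134 genes, 1 member), the highest without labelled LD replicate 3 (1226 genes, 9 members); the cause was not tested. Among members that did not pass, small values changed sign in 18 genes (labelled KO) and 12 genes (labelled LD). In nuclei, 64 member and group pairs past the fold became 34 with the level set at the 75th percentile and 163 with a fold of 0.5, both by construction. Deviations from the group mean were correlated within each comparison. The values were -0.03 to 0.12 between same-numbered libraries labelled KO and WT, and -0.04 to 0.13 between same-numbered libraries labelled LD and PBS. Between differently numbered libraries the range was -0.07 to 0.09 and -0.17 to 0.16. With 3 libraries a group, this cannot show whether the numbers mark pairs or a shared batch. A replicate block called 822 and 793 genes, with 6 members in each comparison. In the livers labelled KO it added C3ar1 (adjusted p = 0.0125); in the livers labelled LD it ended the call of C1ra (adjusted p = 0.0608) and added C6 as higher (adjusted p = 0.0291) and C3ar1 as lower (adjusted p = 0.048). With 3 libraries a group, small changes of members may go unseen.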
